A study of Homo sapiens with 42 samples.

Results

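H1299 is an established line of human non-small cell lung carcinoma, and here its mRNA at 24 h after 2 Gy of gamma radiation was compared with its mRNA at 12 h. The 3 arrays labelled H1299 at 24 h and the 3 labelled H1299 at 12 h were taken by their labels from a series of 42 arrays, and all 18404 genes with a usable entry were tested, with the entry of highest mean level kept for each gene. All cells of both groups were irradiated while growing exponentially, in the same medium with 10% serum, and each array is labelled as a biological replicate, with nothing said of how cultures were kept apart. Beside them the series holds 6 arrays of H1299 at 0 h, 3 each at 2, 4 and 8 h, and 21 arrays of H460, a large-cell lung carcinoma line, at the same times. Later arrays of unirradiated cells are not among the labels, and in a change from 12 h to 24 h the effect of the dose and that of further growth in the dish cannot be told apart. Unirradiated controls are mentioned in the treatment protocol, and whether any of the 0 h arrays came from later controls was not tested.

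A few hours after a dose of gamma radiation, growing cells with an intact G2 checkpoint hold back from mitosis while breaks are repaired, and cells that pass it divide and enter the next G1 and S phase. Genes of mitosis are transcribed in late S and G2 phase under MYB-MuvB and FOXM1, often through a CHR element, genes of DNA replication are transcribed at the G1/S border under E2F factors, and replication-dependent histone mRNAs are made in S phase and broken down when it ends. The transcription factor ATF4 belongs to another programme, the integrated stress response, which raises genes of amino acid synthesis and import when the initiation factor eIF2 is phosphorylated.

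The deposited values are log2 intensities, and a level below is such a value, comparable between arrays for 1 gene but not between genes. The interquartile range of the levels on an array (its width) was 3.76 to 3.93 at 12 h and 3.64 to 3.72 at 24 h, so that the groups differed in width without overlap, and its part in the results was not tested beyond the fit with width as a covariate given beside them. One array that is in neither group, 0 h replicate 2, had the narrowest range of the H1299 arrays (3.24), and it enters the estimate of spread and every change from 0 h. Of markers of the line's state, VIM, the intermediate filament of mesenchymal cells, was at 12.03 to 12.24 in the 6 arrays, and CDH1, the epithelial cadherin, at 3.23 to 3.83. In bulk RNA, fewer cells in a phase and less RNA per cell cannot be told apart.

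Between 12 h and 24 h, 1536 of 18404 genes (8.35%) changed at an adjusted p under 0.05 (limma, Benjamini-Hochberg over all genes). Of these, 596 were higher at 24 h (3.24% of all genes) and 940 were lower (5.11%). At an unadjusted p under 0.05 there were 4546. The changes were mostly small: the median size of a called change was 0.40 on the log2 scale, and 9 genes rose and 8 fell by at least 2-fold. In 1506 of the 1536 called genes the 3 arrays of one time point lay all above the 3 of the other, against 31.6% of all genes tested. The change and the overlap are read from the same 6 arrays, so this is no separate support for the calls. The largest rises and falls named below were chosen among called genes without overlap. The share of calls that were higher at 24 h was 38.8%, but 25.2% after each array was centred on its median and 58.8% with width as a covariate, so that the balance of rises and falls is not settled by these data. The comparisons of 12 h and 24 h with 0 h, given below as values, share arrays with this one and with each other, and called 29.7% of genes at 12 h (16.6% higher, 13.1% lower) and 11.7% at 24 h (8.53% higher, 3.21% lower). Leaving out 0 h replicate 2, which changes the estimate of spread and not the values compared, gave 1080 higher and 1490 lower.

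**Figure D1:**
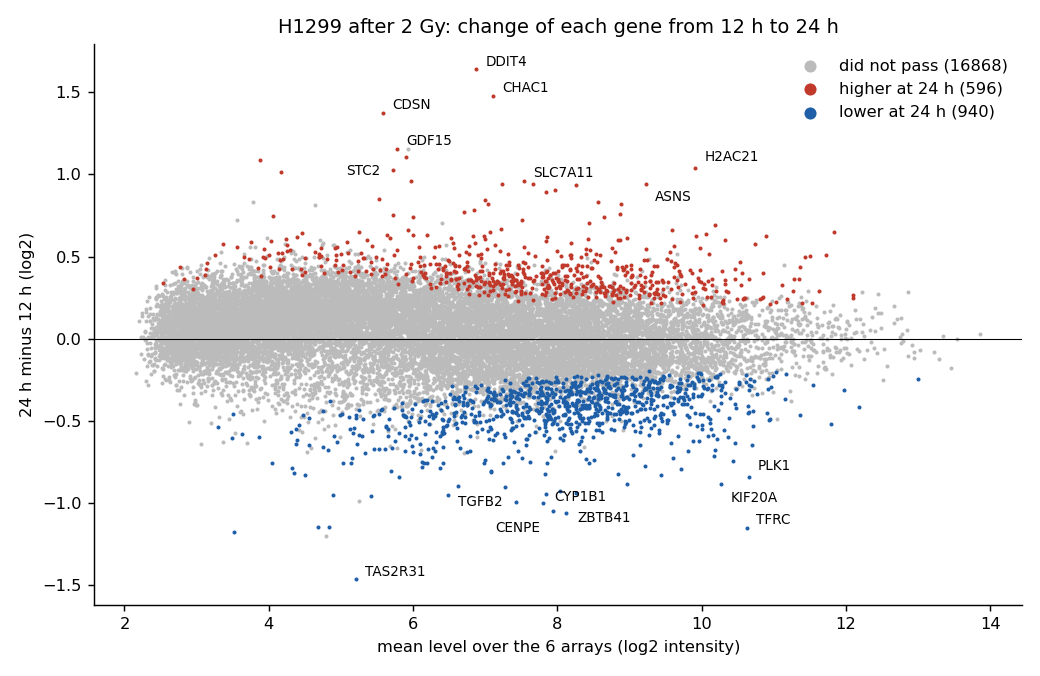
Change from 12 h to 24 h (log2, y axis) against mean level over the 6 arrays (log2 intensity, x axis), 1 point per gene, with the 596 genes higher and the 940 lower at 24 h in colour. DDIT4 and CHAC1 have the largest rises (1.64 and 1.48) and TAS2R31 the largest fall (-1.47).

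The 2 largest rises were those of DDIT4 and CHAC1, both listed as targets of ATF4. DDIT4, which restrains mTORC1 signalling, stood at 5.82, 6.03 and 6.32 in the 12 h arrays and at 7.73, 7.67 and 7.68 in the 24 h arrays. All 3 later arrays were above all 3 earlier ones, as the choice of the largest rises required. The rise was 1.64 ± 0.147 (SE, 3.11-fold, adjusted p = 2.51e-07). CHAC1, which breaks down glutathione, was at 6.40, 6.46 and 6.26 at 12 h and at 7.88, 8.03 and 7.64 at 24 h, a rise of 1.48 ± 0.103 (2.79-fold, adjusted p = 3.13e-09). Its 12 h level was that of 0 h, where the 6 arrays ran from 6.24 to 6.50, and all 3 arrays at 24 h were above that range. ASNS, the enzyme that makes asparagine, read 8.75, 8.81 and 8.71 at 12 h and 9.66, 9.66 and 9.78 at 24 h, a rise of 0.94 ± 0.0721 (1.92-fold, adjusted p = 1.32e-08). ASNS was lower at 12 h than at 0 h (by 0.29) and higher at 24 h than at 0 h (by 0.65), so its arrays at 24 h were above and those at 12 h below the 0 h range of 8.99 to 9.12. STC2, a secreted glycoprotein, rose by 1.03 ± 0.116 from 5.32, 5.27 and 5.03 to 6.06, 6.38 and 6.27 (adjusted p = 8.98e-06).

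Of the 36 ATF4 targets listed, 34 were measured, and 21 rose while 0 fell (61.8%, against 3.24% of all genes). The median change over the 34 was 0.52, against 0.05 over all genes tested, and 32 of the 34 estimates were above 0. Amino acid synthesis was represented by PSAT1 of the serine pathway (0.69 ± 0.0887), by MTHFD2 of mitochondrial folate metabolism (0.46 ± 0.064) and by ASNS. Amino acid import was represented by SLC7A5, the large neutral amino acid transporter, at 10.05, 10.01 and 10.00 and then 10.60, 10.61 and 10.66 (0.60 ± 0.0696, adjusted p = 1.06e-05), and by SLC7A11, the cystine transporter, which rose from 7.05, 7.12 and 6.99 to 7.82, 7.96 and 8.26 (0.96 ± 0.133, adjusted p = 6.88e-05). The lipoprotein receptor gene VLDLR rose by 0.60 ± 0.0804. Among members named after their values were seen, the mRNA of ATF4 itself rose by 0.55 ± 0.0767 (adjusted p = 7.16e-05) and DDIT3, which encodes the stress factor CHOP, by 0.89 ± 0.149 (adjusted p = 0.000532). ATF5 (-0.07) and XPOT (0.02) had overlapping arrays. Without any 1 of the 12 h or 24 h arrays, 19 to 22 of the members were called, and 26 without 0 h replicate 2.

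The median ATF4 target, as level minus the 0 h mean, was at -0.03, -0.09 and -0.08 in the 12 h arrays and at 0.42, 0.37 and 0.43 in the 24 h arrays. The medians at 2, 4 and 8 h lay between -0.16 and -0.06. The 24 h arrays are thus the only time point with a positive shift beyond the 0 h arrays, which ran from -0.13 to 0.06. In the plot of list medians over the time course this is a flat line with a late step.

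Short stretches of 3 promoters of called ATF4 targets are shown for a match to TGATGNAA, the core of the CARE element that ATF4 binds with a C/EBP partner, with the match in capitals and up to 30 bases on each side, ending at the start site where that is nearer. They are RefSeq sequences on GRCh38.p14 in the direction of the gene, all within 250 bases before the annotated start: CHAC1 at chr15:40953232-40953299, plus strand, ASNS at chr7:97872439-97872506, minus strand and HERPUD1 at chr16:56931936-56932003, plus strand. TTGCATCA is the same element read on the other strand.
CHAC1: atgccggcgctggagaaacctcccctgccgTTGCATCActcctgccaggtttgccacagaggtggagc
ASNS: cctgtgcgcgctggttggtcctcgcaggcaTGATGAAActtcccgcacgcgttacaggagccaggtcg
HERPUD1: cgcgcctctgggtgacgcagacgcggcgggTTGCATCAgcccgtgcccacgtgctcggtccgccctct
Here and below, shares of promoters were counted on either strand from 250 bases before to 50 bases after the start. Of the 29 listed ATF4 targets with a RefSeq promoter, 7 had a match there (24.1%). Of 16 cytosolic tRNA synthetases 6 did (37.5%), against 2.54% of the 14230 promoters of genes tested. Among the ATF4 targets, 3 of the 7 with a match and 15 of the 22 without one rose, so the match in this window did not sort the members that rose from those that did not pass. HERPUD1, a component of ER-associated degradation that was named for its promoter, rose by 0.53 ± 0.0956.

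**Figure D2:**
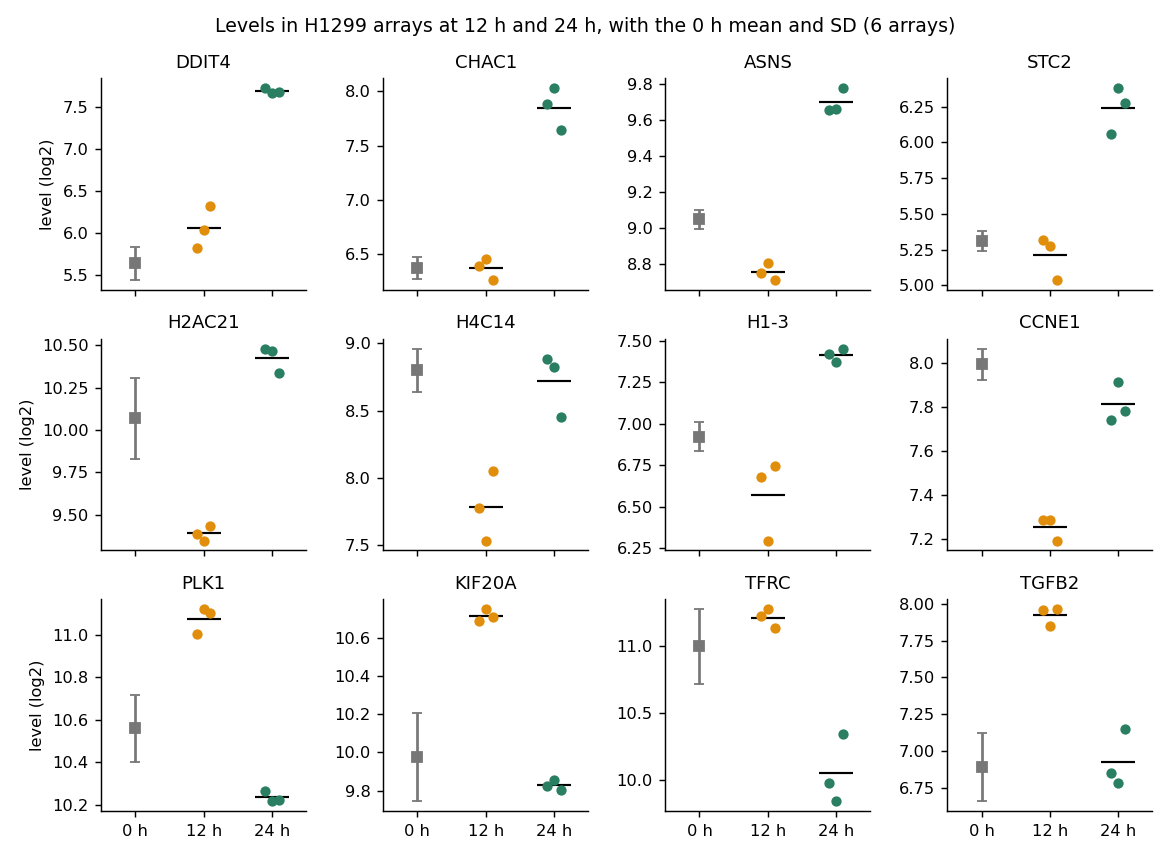
Levels (log2 intensity, y axis, not starting at 0) of 12 genes in the 3 arrays at 12 h and the 3 at 24 h, with bars at the group means, beside the mean and SD of the 6 arrays at 0 h (square). For each gene the arrays at 24 h lie wholly above or wholly below those at 12 h, as for DDIT4 (5.82 to 6.32, then 7.67 to 7.73) and PLK1 (11.002 to 11.122, then 10.22 to 10.27). For genes named as the largest rises or falls this was a condition of the choice.

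Neighbouring stress lists held fewer called members. Their shares stand against 3.24% of all genes higher and 5.11% lower. Of 19 cytosolic tRNA synthetases, which charge tRNAs and several of which are ATF4 targets, 4 rose and 0 fell (21.1%, median 0.14), among them SARS1 (0.41 ± 0.067) and CARS1 (0.52 ± 0.103). That number was 10 with width as a covariate, 7 without 0 h replicate 2 and 2 without 24 h replicate 1. Of 23 ER chaperones and unfolded protein response genes 3 rose and 1 fell: XBP1, the factor spliced by IRE1, rose by 0.46 ± 0.0697 (adjusted p = 0.000155), MANF by 0.39 ± 0.0699 and the chaperone CALR by 0.29 ± 0.0823 (not called in 9 of 19 other settings), while SEL1L of ER-associated degradation fell by 0.42. With width as a covariate 7 of the 23 rose. Of 10 mTORC1 inhibitors, DDIT4 and SESN2 rose (20%) and TSC1 fell by 0.30 (10%), a call lost without 12 h replicate 3 or 24 h replicate 1. SESN2, the leucine-sensing sestrin, read 6.52, 6.40 and 6.45 and then 7.37, 7.21 and 7.14 (0.78 ± 0.11, adjusted p = 7.28e-05).

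The most uniform fall was that of genes of G2 phase and mitosis. Of 59 measured, 49 fell and 0 rose (83.1%, against 5.11% of all genes), with a median change of -0.49 and all 59 estimates below 0. PLK1, the polo kinase of mitotic entry, was at 11.002, 11.122 and 11.105 at 12 h and at 10.27, 10.22 and 10.22 at 24 h, and fell by 0.84 on the log2 scale (SE 0.0803, 1.79-fold, adjusted p = 6.36e-07). KIF20A, a kinesin of the central spindle, was at 10.69, 10.75 and 10.71 and then at 9.83, 9.86 and 9.80, a fall of 0.89 (SE 0.114, adjusted p = 2.85e-05). CCNB1, the cyclin that drives mitotic entry, fell from 11.99, 12.12 and 12.05 to 11.54, 11.50 and 11.56, by 0.52 (SE 0.0626, adjusted p = 1.32e-05). In each of these genes the arrays of a time point lay close together and the time points did not overlap.

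Other members fell by more or by less than these. CENPE, a kinetochore motor, was at 8.39, 8.63 and 8.38 at 12 h and at 7.45, 7.32 and 7.49 at 24 h, and fell by 1.05 (SE 0.165, adjusted p = 0.00028). SGO2, which protects centromeric cohesion, fell by 0.95 (SE 0.127) and KIF20B, a kinesin of cytokinesis, by 0.93 (SE 0.182). TOP2A, the topoisomerase that untangles chromosomes, fell by 0.64 (SE 0.0722), DLGAP5 by 0.64 (SE 0.0748), KIF4A by 0.59 (SE 0.0753) and GTSE1 by 0.56 (SE 0.0685). Members that did not pass included CDK1, with overlapping arrays (-0.15 ± 0.148), FOXM1 (-0.21 ± 0.0693) and AURKB (-0.03 ± 0.071), 3 genes picked after their values were seen. Set against 0 h, the same genes stood above the start at 12 h and near it at 24 h: the list median minus the 0 h mean was 0.33, 0.46 and 0.42 in the 12 h arrays and -0.05, -0.07 and -0.07 in the 24 h arrays. PLK1 ended lower than at 0 h (by 0.33, adjusted p = 0.0024), TOP2A ended higher (by 0.22, adjusted p = 0.022), and KIF20A ended within its 0 h range of 9.51 to 10.10. Without any 1 of the 12 h or 24 h arrays 36 to 46 members fell, and 53 without 0 h replicate 2.

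**Figure D3:**
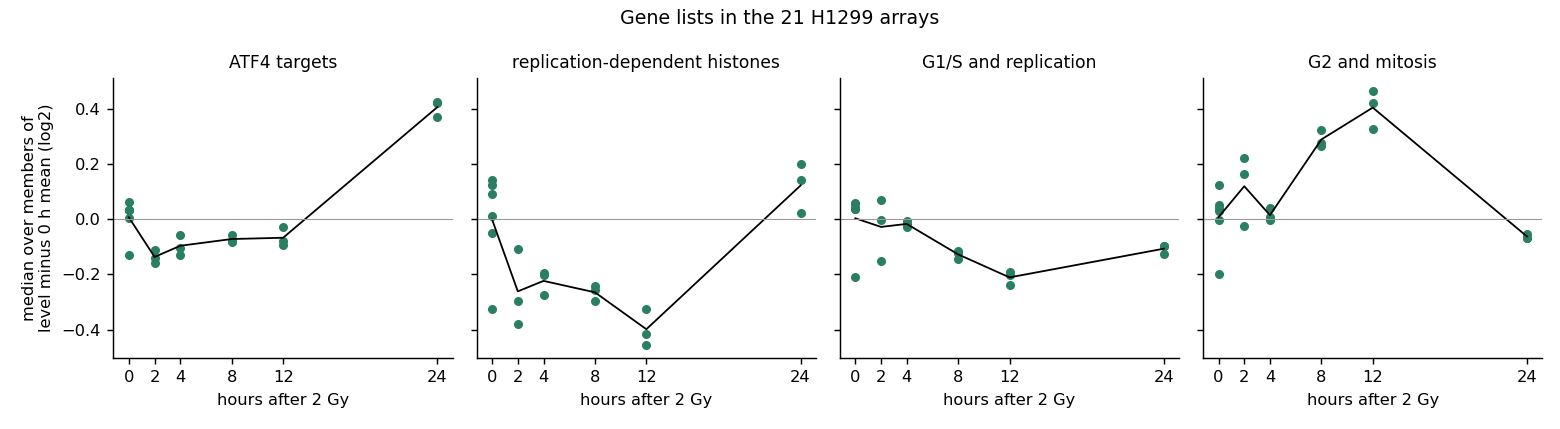
Median over the members of 4 gene lists of level minus 0 h mean (log2, y axis) against hours after 2 Gy (x axis), 1 point per H1299 array and a line through the time point means. ATF4 targets rise at 24 h only, G2 and mitosis genes rise to 12 h and return to near 0 at 24 h, and histones and G1/S genes are lowest at 12 h.

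Promoter stretches of 4 genes of this list that fell are shown for the CHR, TTTGAA, which reads TTCAAA on the other strand and is in capitals. They lie in the RefSeq promoters on GRCh38.p14, in the direction of the gene: PLK1 at chr16:23678830-23678888, plus strand, KIF4A at chrX:70290040-70290103, plus strand, GTSE1 at chr22:46296814-46296869, plus strand and KIF23, a kinesin of the midbody that fell by 0.49, at chr15:69414264-69414329, plus strand.
PLK1: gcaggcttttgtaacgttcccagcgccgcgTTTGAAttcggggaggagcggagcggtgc
KIF4A: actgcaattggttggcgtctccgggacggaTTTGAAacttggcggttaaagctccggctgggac
GTSE1: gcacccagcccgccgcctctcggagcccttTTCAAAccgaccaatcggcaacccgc
KIF23: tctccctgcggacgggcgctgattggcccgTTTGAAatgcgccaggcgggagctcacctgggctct
The CHR of these 4 ended 24, 29, 21 and 50 bases before the start. The same letters were in 34 of 51 promoters of G2 and mitosis genes (66.7%), against 11.9% of all promoters, and CCAAT was in 70.6%, against 36.3%. Of the 34 genes with the CHR 28 fell and of the 17 without it 15 fell, and the median changes were -0.49 and -0.52. Over all genes lower at 24 h, 135 of 778 promoters (17.4%) held the CHR, and over all genes higher at 24 h 34 of 481 (7.07%).

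Replication-dependent histones moved the other way. Of 49 measured, 30 rose and 1 fell (61.2% and 2.04%, against 3.24% and 5.11% of all genes), with a median change of 0.51. H2AC21, an H2A gene, was at 9.39, 9.35 and 9.43 at 12 h and at 10.48, 10.47 and 10.33 at 24 h, a rise of 1.04 ± 0.14 (2.05-fold, adjusted p = 5.44e-05). H1-3, a linker histone, was at 6.68, 6.29 and 6.74 and then at 7.42, 7.37 and 7.45, a rise of 0.84 ± 0.0989 (adjusted p = 1.08e-05). H4C14 went from 7.78, 7.53 and 8.05 to 8.89, 8.82 and 8.45, a rise of 0.94 ± 0.128, and H3C12 rose by 0.94 ± 0.15. The exception was H3C8, which fell by 0.53 (SE 0.078) from 8.84, 8.91 and 8.78 to 8.27, 8.34 and 8.34.

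The histone mRNAs had been below their starting level at 12 h. The list median minus the 0 h mean was -0.46, -0.42 and -0.32 in the 12 h arrays and 0.14, 0.20 and 0.02 in the 24 h arrays, against -0.32 to 0.14 in the 0 h arrays, so that 1 array at 24 h was above that range and the other 2 within it. H4C14, for example, was 1.02 below 0 h at 12 h and 0.08 below it at 24 h, where the difference did not pass. Histone copies are nearly identical in their coding sequence, so which copy a probe read is uncertain, and the count of members overstates the number of separate measurements. Without 24 h replicate 2, 19 members were called, 21 to 31 without any other single array at 12 h or 24 h, and 33 without 0 h replicate 2.

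Promoters of 3 histone genes that rose are printed for the TATA box, in capitals, which ended 24 to 26 bases before the start: H2AC21 at chr1:149887966-149888024, minus strand, H1-3 at chr6:26234988-26235047, minus strand and H4C2 at chr6:26027284-26027344, minus strand, RefSeq on GRCh38.p14.
H2AC21: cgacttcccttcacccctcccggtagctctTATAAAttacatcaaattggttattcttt
H1-3: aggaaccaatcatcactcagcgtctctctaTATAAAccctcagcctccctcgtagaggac
H4C2: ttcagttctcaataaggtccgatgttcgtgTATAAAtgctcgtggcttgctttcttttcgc
TATAAA on either strand was in 30 of 44 histone promoters (68.2%) against 9.01% of all promoters, and CCAAT was in 39 (88.6%). Of the 30 with TATAAA 17 rose, and of the 14 without it 10 rose. H4C2 itself rose from 8.56, 8.40 and 8.65 to 9.16, 9.14 and 9.12, by 0.60 ± 0.0927.

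Genes of the G1/S transition and of replication held fewer called members than the histones. Of 53 measured, 8 rose and 1 fell (15.1% and 1.89%, against 3.24% and 5.11% of all genes), with a median of 0.11. With width as a covariate 21 rose, while 5 rose without 12 h replicate 2 and 4 without 24 h replicate 2. CCNE1, the cyclin of S phase entry, was at 7.29, 7.29 and 7.19 at 12 h and at 7.74, 7.91 and 7.78 at 24 h, a rise of 0.56 ± 0.0747 (adjusted p = 5.44e-05), and was still under its 0 h range of 7.93 to 8.11. FEN1, the flap endonuclease of lagging strand synthesis, rose by 0.43 ± 0.0759, CHAF1A, which loads histones behind the fork, by 0.38 ± 0.0741, RFC2 of the clamp loader by 0.42 ± 0.0855, CDC45 of the replicative helicase by 0.42 ± 0.0993 and E2F1 by 0.38 ± 0.0896. DBF4, the activator of the CDC7 kinase, fell by 0.47 (SE 0.13, adjusted p = 0.0241), a call lost in 4 of 18 other settings. PCNA (0.30 ± 0.0998) and MCM2 (0.15 ± 0.0996), picked after their values were seen, did not pass.

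GINS2, a subunit of the replicative helicase, rose by 0.33 ± 0.0859 (adjusted p = 0.0196) from 8.53, 8.37 and 8.45 to 8.70, 8.98 and 8.65, all below its 0 h range of 9.03 to 9.38. Its promoter at chr16:85688955-85689015, minus strand, holds the E2F site TTTCCCGC on the other strand, and that of E2F1 at chr20:33686386-33686435, minus strand, the form TTTGGCGC (in capitals, RefSeq on GRCh38.p14).
GINS2: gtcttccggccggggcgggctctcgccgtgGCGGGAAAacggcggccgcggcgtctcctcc
E2F1: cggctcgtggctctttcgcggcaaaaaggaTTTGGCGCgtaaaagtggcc
TTTCCCGC was in 11 of 45 G1/S promoters (24.4%) against 2.25% of all, and TTTGGCGC in 10 of 45 (22.2%) against 0.864%. Of the 11 genes with TTTCCCGC 1 rose, against 7 of the 34 without it, and of the 10 with TTTGGCGC 2 rose, against 6 of the 35 without it.

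Genes of the DNA damage response were lower at 24 h where they passed. Of 36 double-strand break repair genes 8 fell and 0 rose (22.2%, against 5.11% of all genes lower, median -0.14). GEN1, which cuts Holliday junctions, was at 8.56, 8.73 and 8.56 and then at 7.88, 7.93 and 8.12 (fell by 0.64, SE 0.102, adjusted p = 0.000324). FANCM, a fork remodeller of the Fanconi pathway, fell by 0.69 (SE 0.14), POLQ of end joining by 0.48 (SE 0.098) and BARD1, the partner of BRCA1, by 0.36 (SE 0.0786). Of 21 checkpoint kinases and partners 4 fell and 0 rose (19.0%, against 5.11% of all genes lower). ATR was at 8.36, 8.39 and 8.27 and then at 7.84, 7.80 and 8.01, a fall of 0.46 (SE 0.101, adjusted p = 0.00574). ATM was at 8.43, 8.50 and 8.42 and then at 7.90, 7.78 and 8.11, a fall of 0.52 (SE 0.131, adjusted p = 0.0153), and both kinases stayed above their 0 h means (ATR by 0.32, adjusted p = 0.015, and ATM by 0.52, adjusted p = 0.0031). WEE1, which holds CDK1 inactive, fell by 0.72 (SE 0.164) and CDC25C, which activates it, by 0.36 (SE 0.1). The count of 8 repair genes was 3 without 24 h replicate 1 and also over all 42 arrays, and 4 without 12 h replicate 2, 12 h replicate 3 or 24 h replicate 2. The 4 checkpoint genes were 2 without 12 h replicate 2 or 24 h replicate 1 and 1 without 24 h replicate 2. With width as a covariate 3 repair genes were called higher and 4 lower, and 2 checkpoint genes higher and 5 lower, and the median of the checkpoint list turned from -0.11 to 0.02. ATM and CDC25C lost their calls without 12 h replicate 2, 24 h replicate 1 or 24 h replicate 2.

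A stress cytokine and a cell cycle inhibitor were among the genes that rose. GDF15, the cytokine, rose from 5.31, 5.27 and 5.04 to 6.58, 6.36 and 6.14 (1.16 ± 0.207, adjusted p = 0.00104). CDKN1A, the cyclin-dependent kinase inhibitor p21, was at 6.91, 6.89 and 7.01 and then at 7.27, 7.29 and 7.31, a rise of 0.35 ± 0.0819 (1.28-fold, adjusted p = 0.00845). In both genes the arrays of the time points did not overlap, and GDF15 at 12 h lay within its 0 h range of 4.67 to 5.47.

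**Figure D4:**
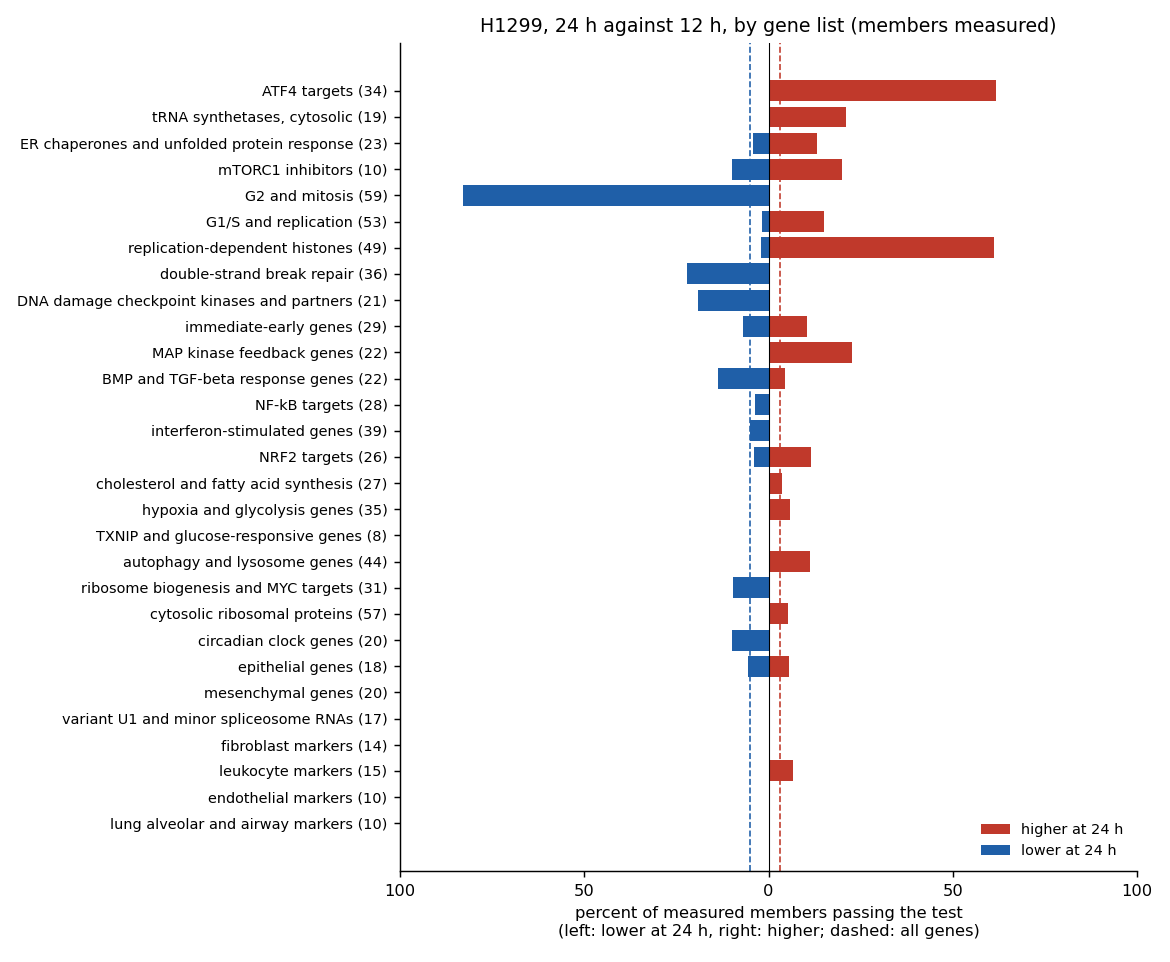
Percent of the measured members of 29 gene lists (number in brackets) that were higher at 24 h (right) or lower (left) at an adjusted p under 0.05. Dashed lines give the same over all genes, 3.24% higher and 5.11% lower. G2 and mitosis genes reach 83.1% on the lower side, and ATF4 targets (61.8%) and histones (61.2%) lead on the higher side.

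In growth factor signalling, 5 of 22 MAP kinase feedback genes rose and 0 fell (22.7%, against 3.24% of all genes higher, median 0.17). DUSP6, the phosphatase of ERK, was at 9.33, 9.40 and 9.24 and then at 9.59, 9.58 and 9.59 (0.26 ± 0.0706, adjusted p = 0.0215), and at 24 h was 1.36 above 0 h. ERRFI1, an inhibitor of EGF receptor family kinases, rose by 0.29 ± 0.0774, and the Sprouty family members SPRY2 and SPRED3 by 0.32 ± 0.0906 and 0.36 ± 0.104. The count of 5 was 0 over all 42 arrays and without 24 h replicate 1 or 24 h replicate 2, 1 without 12 h replicate 2 or 12 h replicate 3, and 3 without 12 h replicate 1. Of 29 immediate-early genes 3 rose (10.3%, against 3.24% of all genes) and 2 fell (6.90%, against 5.11%). JUND rose by 0.42 ± 0.0758 and IER2 by 0.31 ± 0.0735, while KLF10 fell by 0.43 (SE 0.0637) and KLF6 by 0.28 (SE 0.0725). Without 24 h replicate 1 there was 1 rise, without 24 h replicate 3 there were 5 and without 0 h replicate 2 there were 6, and 1 gene fell without 12 h replicate 2 or 24 h replicate 2.

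TGFB2, a ligand of the TGF-beta family, fell from 7.96, 7.85 and 7.96 to 6.85, 6.78 and 7.15, by 0.99 on the log2 scale (SE 0.123, 1.99-fold, adjusted p = 1.77e-05). The 0 h arrays ran from 6.85 to 7.08 apart from 0 h replicate 2 at 6.46, and the 24 h arrays lay around that range, with replicate 2 below it and replicate 3 above it. Of 22 BMP and TGF-beta response genes 3 fell (13.6%, against 5.11% of all genes) and 1 rose (4.55%, against 3.24%). ID2, a BMP target, fell by 0.61 (SE 0.103) from a 12 h level already 0.74 below 0 h, SKIL, a repressor of SMAD signalling, fell by 0.56 (SE 0.134), and LTBP1, which holds latent TGF-beta, rose by 0.34 ± 0.0876, a call lost without 12 h replicate 1 or 12 h replicate 3, while 5 members fell without 0 h replicate 2. Of 28 NF-kB targets 1 fell, a share of 3.57%, below the 5.11% of all genes. That gene, TNFAIP3, the deubiquitinase A20, went from 6.19, 6.28 and 6.22 to 5.75, 5.33 and 5.56 (fell by 0.68, SE 0.104, adjusted p = 0.000189). Of 39 interferon-stimulated genes the RNA sensors IFIH1 and RIGI fell, by 0.47 (SE 0.133) and 0.44 (SE 0.131), which is a share of 5.13%, near the background of 5.11%, and 0 fell without 12 h replicate 2 or 24 h replicate 2.

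Metabolic lists held few called members. Of 26 NRF2 targets 3 rose (11.5%, against 3.24% of all genes) and 1 fell (3.85%, against 5.11%). These were SLC7A11, the aldehyde dehydrogenase ALDH3A1 (0.75 ± 0.183), the sulfiredoxin SRXN1 (0.28 ± 0.0838) and, falling by 0.39, the glutathione synthesis subunit GCLM. SRXN1 and GCLM were each not called in 10 of 19 other settings, and without any 1 of the 6 arrays the list held 0 falls and 1 to 3 rises. Of 35 hypoxia and glycolysis genes BNIP3 and VEGFA, the vascular growth factor, rose by 0.43 ± 0.101 and 0.41 ± 0.0968 (5.71%), but 0 genes of the list rose without 12 h replicate 1 or 24 h replicate 2 and 1 without 24 h replicate 1. Of 27 genes of cholesterol and fatty acid synthesis only the regulator SREBF1 rose (0.32 ± 0.0724), a share of 3.70%, near the 3.24% of all genes. That count was 0 without 24 h replicate 1 and 4 without 0 h replicate 2. Of 8 TXNIP and glucose-responsive genes 0 passed. Of 44 autophagy and lysosome genes 5 rose and 0 fell (11.4%): the protease CTSL by 0.32 ± 0.0689, WIPI1 by 0.37 ± 0.0808 and 3 members of the ATG8 family, GABARAPL1, MAP1LC3A and GABARAPL2, by 0.39, 0.38 and 0.31. MAP1LC3A was not called in 10 and GABARAPL2 in 9 of 19 other settings. The count of 5 was 1 over all 42 arrays and without 24 h replicate 2, 2 without 12 h replicate 1 and 3 without 12 h replicate 2 or 24 h replicate 1.

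Of 57 cytosolic ribosomal proteins 3 rose (5.26%), RPS14 by 0.43 ± 0.0734, RPS2 by 0.26 ± 0.0757 and RPL3 by 0.25 ± 0.0728, but 22 rose with width as a covariate, 7 without 0 h replicate 2, 5 without 24 h replicate 3 and 1 without 12 h replicate 2, 12 h replicate 3, 24 h replicate 1 or 24 h replicate 2, so this list cannot be read apart from the width of the arrays. Of 31 ribosome biogenesis and MYC targets 3 fell (9.68%, against 5.11% of all genes). UTP20 fell by 0.46 (SE 0.0912) and the RNA polymerase I subunits POLR1A and POLR1B by 0.28 and 0.50. In this list 1 fell without any single array at 12 h, 24 h replicate 1 or 24 h replicate 2, against 5 without 0 h replicate 2. Of 20 clock genes PER3 and PER2, repressors of the circadian loop, fell by 0.59 (SE 0.111) and 0.43 (SE 0.115). Their share was 10%, against 5.11% of all genes, and 1 fell without 12 h replicate 2, 12 h replicate 3, 24 h replicate 1 or 24 h replicate 2. Of 18 epithelial genes the keratin KRT8 rose by 0.25 ± 0.0788, with arrays that overlapped, and the junction protein TJP1 fell by 0.30 (SE 0.0919), calls lost in 9 and 8 of 19 other settings. Each is a share of 5.56%, against 3.24% of all genes higher and 5.11% lower. Of 20 mesenchymal genes and 17 variant U1 and minor spliceosome RNAs 0 passed. RNVU1-15, a variant U1 RNA whose near-identical copies make its reading uncertain, was 1.19 below 0 h at 12 h and 1.51 below at 24 h.

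Several of the largest changes were in genes outside these programmes. TFRC, the transferrin receptor of iron uptake, was at 11.22, 11.27 and 11.13 at 12 h and at 9.98, 9.84 and 10.35 at 24 h, a fall of 1.15 (SE 0.136, 2.22-fold, adjusted p = 1.08e-05). Its 12 h level was not called against 0 h, so the 24 h arrays were 0.94 below the start. CYP1B1, a cytochrome P450 under the aryl hydrocarbon receptor, was at 8.25, 8.36 and 8.30 and then at 7.12, 7.11 and 7.67, a 2-fold fall (SE 0.122 on the log2 scale). The zinc finger gene ZBTB41 fell by 1.06 (SE 0.149) from 8.47, 8.90 and 8.58 to 7.51, 7.34 and 7.91, and remained 0.86 above 0 h. ATF7IP2 fell by 0.96 (SE 0.191) and the bicarbonate transporter SLC4A8 by 0.95 (SE 0.136). Histone pseudogene H2BC19P fell by 0.95 (SE 0.26), a call that 7 of 19 other settings did not keep.

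Bitter taste receptor genes, a family noticed only after the values were seen, made up 4 of the 15 largest falls. TAS2R31 was at 6.24, 5.97 and 5.60 at 12 h and at 4.55, 4.17 and 4.71 at 24 h, a fall of 1.47 (SE 0.233, adjusted p = 0.000311), and TAS2R43, TAS2R4 and TAS2R19 fell by 1.18, 1.15 and 1.15. Over the 24 receptors measured 5 fell and 0 rose, with a median of -0.37, against 5.11% of all genes lower and 3.24% higher. In H460 1 of the receptors fell and 0 rose, with a median of -0.21, against 0.636% of all genes lower there. TAS2R43, TAS2R4 and TAS2R19 were among the genes left out by a filter on dim genes, members of the family share sequence, and a level near the lower end of the scale has no detection call beside it, so which receptor was read is uncertain.

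Secreted and surface proteins were among the rises. MMP1, the interstitial collagenase, was at 5.53, 5.53 and 5.41 and then at 6.63, 6.25 and 6.47, a rise of 0.96 ± 0.132 (1.95-fold, adjusted p = 6.62e-05). That brought it back to within 0.05 of its 0 h mean, from 1.01 below it at 12 h. SPP1, which encodes osteopontin, rose from 7.35, 7.54 and 7.65 to 8.45, 8.39 and 8.43 (0.91 ± 0.114), and ULBP1, a ligand of the NK cell receptor NKG2D, from 6.71, 6.78 and 6.80 to 7.56, 7.88 and 7.65 (0.94 ± 0.105). CDSN, a protein of keratinocyte junctions, rose by 1.38 ± 0.267, but its 12 h arrays were spread at 4.67, 5.67 and 4.34.

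To set the later change against the earlier response on means of arrays that it does not share, the genes called at 8 h against 0 h were followed from 12 h to 24 h. Both comparisons use the same estimate of spread for a gene, taken over all 21 H1299 arrays, so their calls are not independent. At 8 h, 24.6% of the genes were called against 0 h: 2769 genes were higher than at 0 h (15% of those tested) and 1755 lower (9.54%). Of the 2769, 750 (27.1%) were lower at 24 h than at 12 h and 22 (0.795%) higher, against 5.11% and 3.24% of all genes. Their median change from 12 h to 24 h was -0.22. Of the 1755, 220 (12.5%) were higher at 24 h than at 12 h and 3 (0.171%) lower, against 3.24% and 5.11% of all genes, with a median of 0.20. Read from the later side, 79.8% of the 940 genes that fell had been higher at 8 h, 36.9% of the 596 that rose had been lower at 8 h, and 354 of the 596 (59.4%) had not been called at 8 h. STC2 was among these 354, with a change of -0.15 from 0 h to 8 h (adjusted p = 0.297). With width as a covariate 1523 genes were higher at 8 h, of which 395 (25.9%) fell later, against 3.56% of all genes. In that fit 1342 were lower at 8 h, of which 420 (31.3%) rose later, against 5.09% of all genes. Without 0 h replicate 2 the counts were 1048 and 366.

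The same comparison in H460 was used to ask which late changes differed between the lines. The difference (H1299 change minus H460 change) passed in 74 genes (0.402%), 18 with a more positive change in H1299 (0.0978%) and 56 with a more negative one (0.304%), and 1500 genes had an unadjusted p under 0.05. Of the 74, 29 were called in H1299 alone, 33 in H460 alone, 6 in both and 6 in neither. In H460 itself 359 genes (1.95%) were called, 242 higher (1.31%) and 117 lower (0.636%) at 24 h.

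Several ATF4 targets rose more in H1299. The difference passed in 7 of the 34 members, all of them more positive in H1299. DDIT4 rose in H1299 by 1.64 and in H460 differed by 0.15 ± 0.17, from a mean of 9.81 to 9.95, which gives a difference of 1.49 ± 0.234 (adjusted p = 0.000276). SLC7A11 differed by 1.09 ± 0.198 (adjusted p = 0.00253), CHAC1 by 1.01 ± 0.198, SESN2 by 0.99 ± 0.16, SLC7A5 by 0.74 ± 0.133 and SLC1A5, a glutamine transporter, by 0.73 ± 0.148. For ASNS the difference was 0.52 ± 0.124 (adjusted p = 0.0407), a call that 13 of 24 other settings did not keep, and ASNS rose in H460 too, by 0.42. CTH, a cystathionine lyase picked after its values were seen, rose by 0.74 in H1299 and by 1.14 in H460.

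**Figure D5:**
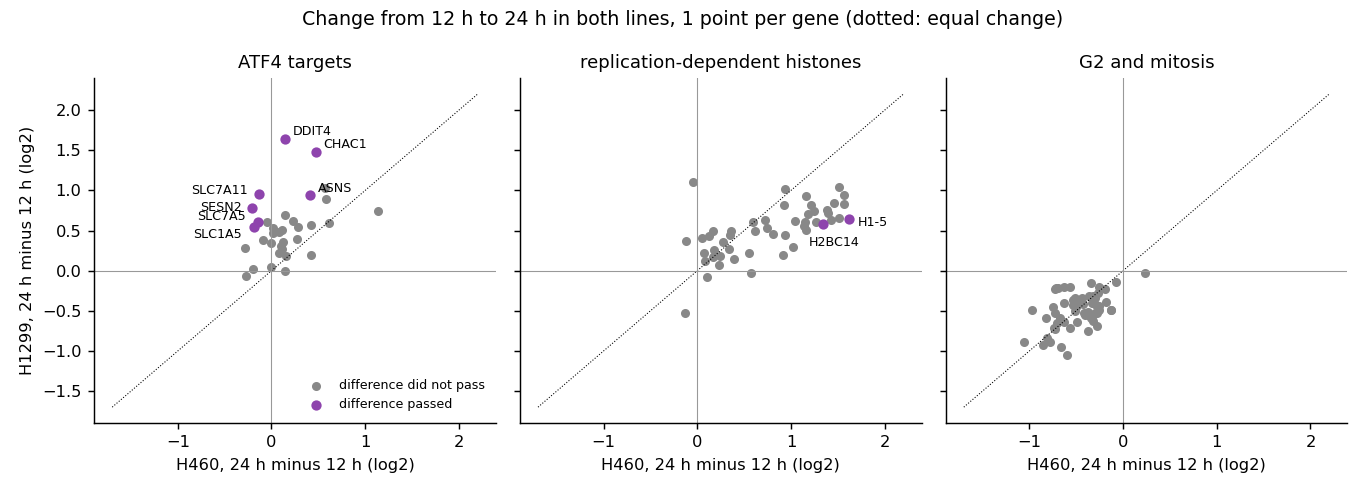
Change from 12 h to 24 h in H1299 (log2, y axis) against that in H460 (log2, x axis), 1 point per gene, for 3 lists, with a dotted line at equal change. Genes whose difference between the lines passed are in colour: 7 ATF4 targets above the line, 2 histones below it and 0 genes of G2 and mitosis.

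Among cell cycle genes few differences between the lines passed, and a p that misses the threshold does not show that the changes are equal. Of the 59 genes of G2 and mitosis, 49 fell in H1299 and 24 in H460, the list medians were -0.49 and -0.45, and the difference passed in 0. For PLK1 the changes were -0.84 and -0.81. Of the 49 histones 30 rose in H1299 and 27 in H460, with medians of 0.51 and 0.81. The difference passed for H1-5, which rose by 0.65 in H1299 and 1.61 in H460, and for H2BC14 (0.58 and 1.34).

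CDKN1A rose in H1299 by 0.35 while its H460 estimate was -0.54 ± 0.148 (adjusted p = 0.0541), and the difference of 0.90 ± 0.169 passed (adjusted p = 0.00402). MMP1 rose in H1299 by 0.96, with -0.41 ± 0.16 in H460 (difference 1.37 ± 0.213, adjusted p = 0.000276), and the hormone gene CRH rose by 0.85 with -0.04 in H460 (difference 0.89 ± 0.216, adjusted p = 0.0462). TGFB2 fell in H1299 by 0.99, with 0.34 ± 0.145 in H460 (difference -1.34 ± 0.196, adjusted p = 0.00014). ID2 (difference -0.79 ± 0.169) and TNFAIP3 (-0.94 ± 0.142), which fell in H1299, also passed. The call for ID2 was lost in 4 of 24 other settings. DUSP6 passed too (-0.88 ± 0.149), but it rose in H1299, so its difference came from a larger rise in H460.

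The other leading differences came from changes in H460. CCN2, a matricellular protein, differed by -0.000564 ± 0.064 between the time points in H1299, where its 6 arrays overlapped at 9.04 to 9.21, and rose by 1.28 ± 0.116 in H460 (difference -1.28 ± 0.129, adjusted p = 3.32e-08). SUCNR1, the succinate receptor, AMDHD1, a histidine breakdown enzyme, SERPINB11, IFITM10, ESM1 and CD226 rose in H460 by 0.93 to 1.63 and did not pass in H1299. CPS1-IT1, a noncoding transcript, fell in H460 by 0.95 and did not pass in H1299, and its difference was not called in 10 of 24 other settings.

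Markers of other cell types that a culture should lack gave a check on mixing. Of the fibroblast (14), leukocyte (15), endothelial (10) and lung alveolar and airway (10) markers measured, 1 passed, against 8.35% of all genes. It was CD68, a lysosomal protein that tumour lines also express, which rose by 0.28 ± 0.0807, a call lost in 7 of 19 other settings. A test of change cannot show whether other cells were present alike at both times. The summed levels of the fibroblast list ran from 57.9 to 60.2 at 12 h and from 59.1 to 60.9 at 24 h, and those of the lung list from 43.2 to 45.1 and from 45.2 to 46.3. The leukocyte sums were 59.5 to 62.4 and 62.4 to 64.5, and the endothelial sums 36.7 to 37.9 and 37.5 to 38.6. The defining markers PTPRC (2.36 to 2.73), DCN (2.73 to 2.91) and CDH5 (3.40 to 3.85) were near the lower end of the scale at both times. Not all markers were that low: ACTA2 of the fibroblast list read 6.61 to 6.84 and AGER of the lung list 5.86 to 6.29. The median member of the fibroblast list was at 4.22 to 4.42 at 12 h, and that of the lung list at 4.18 to 4.42. The higher sums at 24 h moved with the narrower width of those arrays, and their part in the results was not tested.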

How the data were processed

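Values of 42 arrays were used as deposited: log2 intensities, which per the labels' protocols came from 100 ng of total RNA on Affymetrix arrays. Summarisation and normalization by the authors are not given in the sources used here, and neither are detection calls. Of 32321 rows, 19158 had 1 gene symbol, and 18404 genes were tested, with no filter on dim genes. A planned check and one gene list are not reported here.

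Each gene was fitted in limma 3.58.1 (R 4.3.3; lmFit, eBayes with trend) with 1 mean per time point over the 21 H1299 arrays, and the contrast 24 h minus 12 h was tested with Benjamini-Hochberg adjustment over all 18404 genes, at a threshold of 0.05. H460 was fitted alike, and the difference between the lines is the interaction over all 42 arrays. The p-values measure the spread between these arrays. Number of arrays limits the precision: in simulated data, 99 of 100 genes changed by 1 and 48 of 100 changed by 0.5 on the log2 scale were recovered for this comparison. The simulated noise was independent between genes and arrays, and 154 genes were called there, against 1536 in the data. The adjusted p depends on how many genes change, so the recovery in the data may differ.

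The genes named are the 15 largest rises and 15 largest falls among called genes with arrays that did not overlap, the 8 largest differences between the lines in each direction, up to 8 members of each list with the smallest p, and line markers, and others are said to be picked later. MicroRNA, small nucleolar RNA and unnamed loci may stay unnamed. Comparisons, lists and rules were chosen with earlier results of these data known. Promoters are RefSeq's (GRCh38.p14), searched on both strands from 250 bases before to 50 bases after the start. The stretches printed hold only bases before the start. Replicate numbers were not used to pair the arrays in the main fit. Correlations of the deviations of same-numbered H1299 arrays at 12 h and 24 h were 0.063, -0.122 and -0.150, and those of other pairs ran from -0.128 to 0.228. With 3 arrays per time point these values cannot show whether the cultures were paired. Alternatives were the arrays in the fit, the variance prior, normalization, array weights and width, a dim filter, entries per gene, the replicate block and leaving out arrays.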

Additional observations from a re-analysis of the deposited data

Results flagged for a closer look

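In 30 groups of 6 arrays at 0 h, a single array stood far from the rest in 2 genes. Chance alone gives about 1 in 20 groups, so 2 of 30 is near the number that chance gives. In both genes the array was 0 h replicate 2, the H1299 array with the narrowest range of levels. It read H2BC10 at 5.502, with the next array at 6.318, and TGFB2 at 6.458, with the next at 6.848. As a share of the range the gap was 0.749 for H2BC10 and 0.625 for TGFB2, which is just at the limit of 0.625.

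For 18 of 41 genes looked at, the change from 12 h to 24 h differed between H1299 and H460 by the test of the interaction (limma, adjusted over all genes). The 41 include the 8 largest differences in each direction, chosen because they passed this same test. The count of 18 is therefore largely set by that choice. Over all genes tested the difference passed in 74 (0.402%). More positive in H1299 were DDIT4 (difference 1.494), MMP1 (1.368), CPS1-IT1 (1.177), SLC7A11 (1.09), CHAC1 (1.008), SESN2 (0.9925), CDKN1A (0.8959), CRH (0.8883), SPP1 (0.7269) and ASNS (0.5234). More negative were SUCNR1 (-1.667), CD226 (-1.379), SERPINB11 (-1.34), TGFB2 (-1.335), IFITM10 (-1.297), AMDHD1 (-1.288), CCN2 (-1.28) and ESM1 (-1.246). Of 24 other settings, the calls for ASNS and CRH were each lost in 13, that for CPS1-IT1 in 10, for IFITM10 in 3 and for CD226 and SPP1 in 1 each.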

How the results depend on the processing

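No gene named reversed its direction in the settings run: of 120 called genes named, 66 were called in every setting and 54 were not called in at least 1, and of 22 genes with a difference between the lines 15 and 7. Over all 42 arrays 198 genes were higher at 24 h and 343 lower. Median centring gave 389 higher, array weights 1806 higher and 1920 lower, and width as a covariate 936 higher. With the replicate block 464 were higher and 830 lower. Leaving out 1 array gave 171 to 1080 higher, 323 to 1490 lower, and 19 to 33 histones; higher and lower counts were 356 and 661 without 12 h replicate 1, 234 and 323 without 12 h replicate 2, 369 and 598 without 12 h replicate 3, 197 and 346 without 24 h replicate 1, 171 and 352 without 24 h replicate 2, 860 and 1151 without 24 h replicate 3, and 1080 and 1490 without 0 h replicate 2. Of the genes higher at 8 h, those lower later numbered 258 over all 42 arrays, 1386 with weights, 395 with width and 277 to 1048 with 1 array left out. Of the genes lower at 8 h, those higher later numbered 53 over all 42 arrays, 145 without trend and also after median centring, 422 after quantile normalization, 694 with weights, 126 with the replicate block, 420 with width and 60 to 366 with 1 array left out. The difference between the lines was called in 505 genes with only the arrays at 12 h and 24 h, 745 with weights, 142 with width, 378 with the replicate block and only the arrays at 12 h and 24 h, and 38 to 110 with 1 array left out, the lowest without H460 12 h replicate 3. Leaving out 0 h replicate 2, the H460 arrays, and the block with only the late arrays were settings chosen after seeing the data. The cause of these shifts was not tested. Without detection calls, dim genes such as the taste receptors have no limit of signal over background.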

Other observations

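Gene families were also grouped by symbol, after the values were seen. Of 494 zinc finger genes with a ZNF symbol, 39 were lower at 24 h than at 12 h and 8 higher, with a median change of -0.13. Of 176 small nucleolar RNAs 10 were lower and 0 higher, and of 173 microRNA entries, host genes left out, 3 were lower and 2 higher, against 5.11% of all genes lower and 3.24% higher.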
